A study of Mus musculus with 8 samples.

Results

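Open chromatin around the genes of the E proteins (Tcf3, Tcf4, Tcf12) and of their Id inhibitors (Id1, Id2, Id3, Id4) was described from ATAC-seq peak lists of mouse DN3 thymocytes. A peak belonged to a gene when it overlapped the gene body or the 50 kb on either side of it. After the 4 lists were merged, 266 of 180321 consensus regions met this rule, 182 at the E protein genes and 84 at the Id genes. The lists themselves held 247 and 211 such peaks in the wild-type libraries and 198 and 185 in the mutant libraries.

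ATAC-seq uses a transposase that inserts adapters into accessible DNA. DN3 thymocytes are CD4- CD8- T-cell precursors at the stage where the pre-T-cell receptor is selected. All 4 libraries came from C57BL/6 mice. In 2 of them N-Me, the Notch-Myc enhancer that lies far downstream of Myc, was wild type, and in the other 2 its GATA sites 1 and 2 were mutated on both alleles. The series also holds 4 samples of Notch-driven T-cell leukaemia, which are outside this description. Whether libraries of 1 genotype came from separate animals is not stated in the labels, so the p-values reflect spread among libraries that may be technical.

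E proteins are basic helix-loop-helix transcription factors that bind the E-box motif CANNTG as dimers. Id proteins have the helix-loop-helix but lack the basic region, so a dimer of an E protein with an Id protein does not bind DNA. In thymocytes the products of Tcf3 and Tcf12 are known for activating genes of pre-T-cell receptor assembly, and signalling through that receptor is known to induce Id3.

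Each value of fold enrichment below is the authors' own, given by their peak caller for a peak within its library, and is used to rank peaks within a list. A region with more than 1 peak in a library took the highest of their folds there. Read counts are not part of the lists, and library depth is therefore unknown. The wild-type lists held 169255 and 156372 peaks with median widths of 284 and 302 bp, and the mutant lists 121022 and 119023 peaks of 444 and 421 bp. The covered lengths lay between 69.3 and 72.3 Mb. Adjacent peaks were never closer than 257 and 261 bp in wild type, and 293 and 349 bp in mutant, so the mutant lists joined peaks over longer gaps. These properties of the lists move with genotype, and their part in each difference below was not tested except where joined lists are named. All 5 DN3 markers (Il2ra, Cd3e, Ptcra, Bcl11b, Rag1) had a peak at an annotated start or gene end (within 1 kb) in every library. This also held for 66.8% of protein-coding genes, and 1.76% had such a peak in both wild-type libraries only. Among markers of other cell types, Gata1 and Hba-a1 had none in any library, Pax5 and Epcam had one in all 4, Csf1r and Mpo in both wild-type libraries only, and Foxn1 in the first wild-type library only.

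In every library all 7 genes had a peak at an annotated start, or at a gene end where no start was matched (Tcf4, Id1), to within 1 kb. Over the genome this held for 66.8% of 21887 protein-coding genes, and for 1.76% the start had a peak only in wild type, a pattern shown by 0 of the 7. The sequences before 5 of these starts are shown because they are the sites where E-box letters, the motif that E proteins read, can be looked for at genes open in all 4 libraries. They are the 250 bases upstream of the RefSeq start, in GRCm38.p6, written 5′ to 3′ on the strand of the gene, and capitals mark each CANNTG.

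Tcf3, chr10:80433636-80433885, minus strand: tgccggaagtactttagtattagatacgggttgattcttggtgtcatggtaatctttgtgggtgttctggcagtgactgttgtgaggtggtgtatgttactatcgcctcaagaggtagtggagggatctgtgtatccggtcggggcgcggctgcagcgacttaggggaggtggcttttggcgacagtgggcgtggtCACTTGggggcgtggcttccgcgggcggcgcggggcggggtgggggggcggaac
Tcf12 outermost start, chr9:72111820-72112069, minus strand: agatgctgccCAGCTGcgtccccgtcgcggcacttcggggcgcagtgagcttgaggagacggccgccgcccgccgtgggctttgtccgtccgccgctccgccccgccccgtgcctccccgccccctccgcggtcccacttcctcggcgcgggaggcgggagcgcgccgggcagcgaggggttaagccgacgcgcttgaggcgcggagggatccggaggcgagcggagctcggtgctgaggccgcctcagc
Tcf12 internal start, chr9:71896097-71896346, minus strand: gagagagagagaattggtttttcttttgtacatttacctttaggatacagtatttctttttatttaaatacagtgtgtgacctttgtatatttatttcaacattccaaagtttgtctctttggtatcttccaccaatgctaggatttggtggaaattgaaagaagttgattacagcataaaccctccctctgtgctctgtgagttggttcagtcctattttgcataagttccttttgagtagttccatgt
Id2, chr12:25096093-25096342, minus strand: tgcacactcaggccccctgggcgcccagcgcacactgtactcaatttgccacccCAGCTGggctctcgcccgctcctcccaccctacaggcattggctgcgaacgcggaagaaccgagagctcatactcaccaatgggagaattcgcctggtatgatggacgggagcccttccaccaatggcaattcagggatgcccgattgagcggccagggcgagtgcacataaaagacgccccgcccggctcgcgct
Id3, chr4:136143572-136143821, plus strand: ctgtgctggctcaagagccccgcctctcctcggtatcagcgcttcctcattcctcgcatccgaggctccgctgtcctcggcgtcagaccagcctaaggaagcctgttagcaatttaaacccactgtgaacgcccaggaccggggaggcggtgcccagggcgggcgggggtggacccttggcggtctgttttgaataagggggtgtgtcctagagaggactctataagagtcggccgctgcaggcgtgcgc

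The upstream sequence of Tcf3 held the E-box CACTTG at 54 to 49 bases before the start. The outermost Tcf12 start had CAGCTG at 240 to 235 bases, and the second Tcf12 start, which is not printed, had CAAGTG at 149 to 144 bases. Id2 had CAGCTG at 196 to 191 bases. No CANNTG was found at the internal Tcf12 start, at Id3 or at Id4. Of 32817 RefSeq promoters searched over the same length, 66.2% held a CANNTG and 13.0% a CAGCTG. The form CAGGTG, which overlaps CANNTG and was searched on both strands with CACCTG, was in 17.2% of promoters and in none of the 7 matched ones. The GATA letters GATAA, or TTATC on the other strand, were in 22.6% of promoters and in none of the 7. These matches are letters in a short window and say nothing of binding. The GC content of the windows was 59.6% at Tcf3, 76.8% and 78.0% at the outer Tcf12 starts, 34.8% at the internal Tcf12 start, 62.8% at both Id2 and Id3 and 75.6% at Id4.

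**Figure D1:**
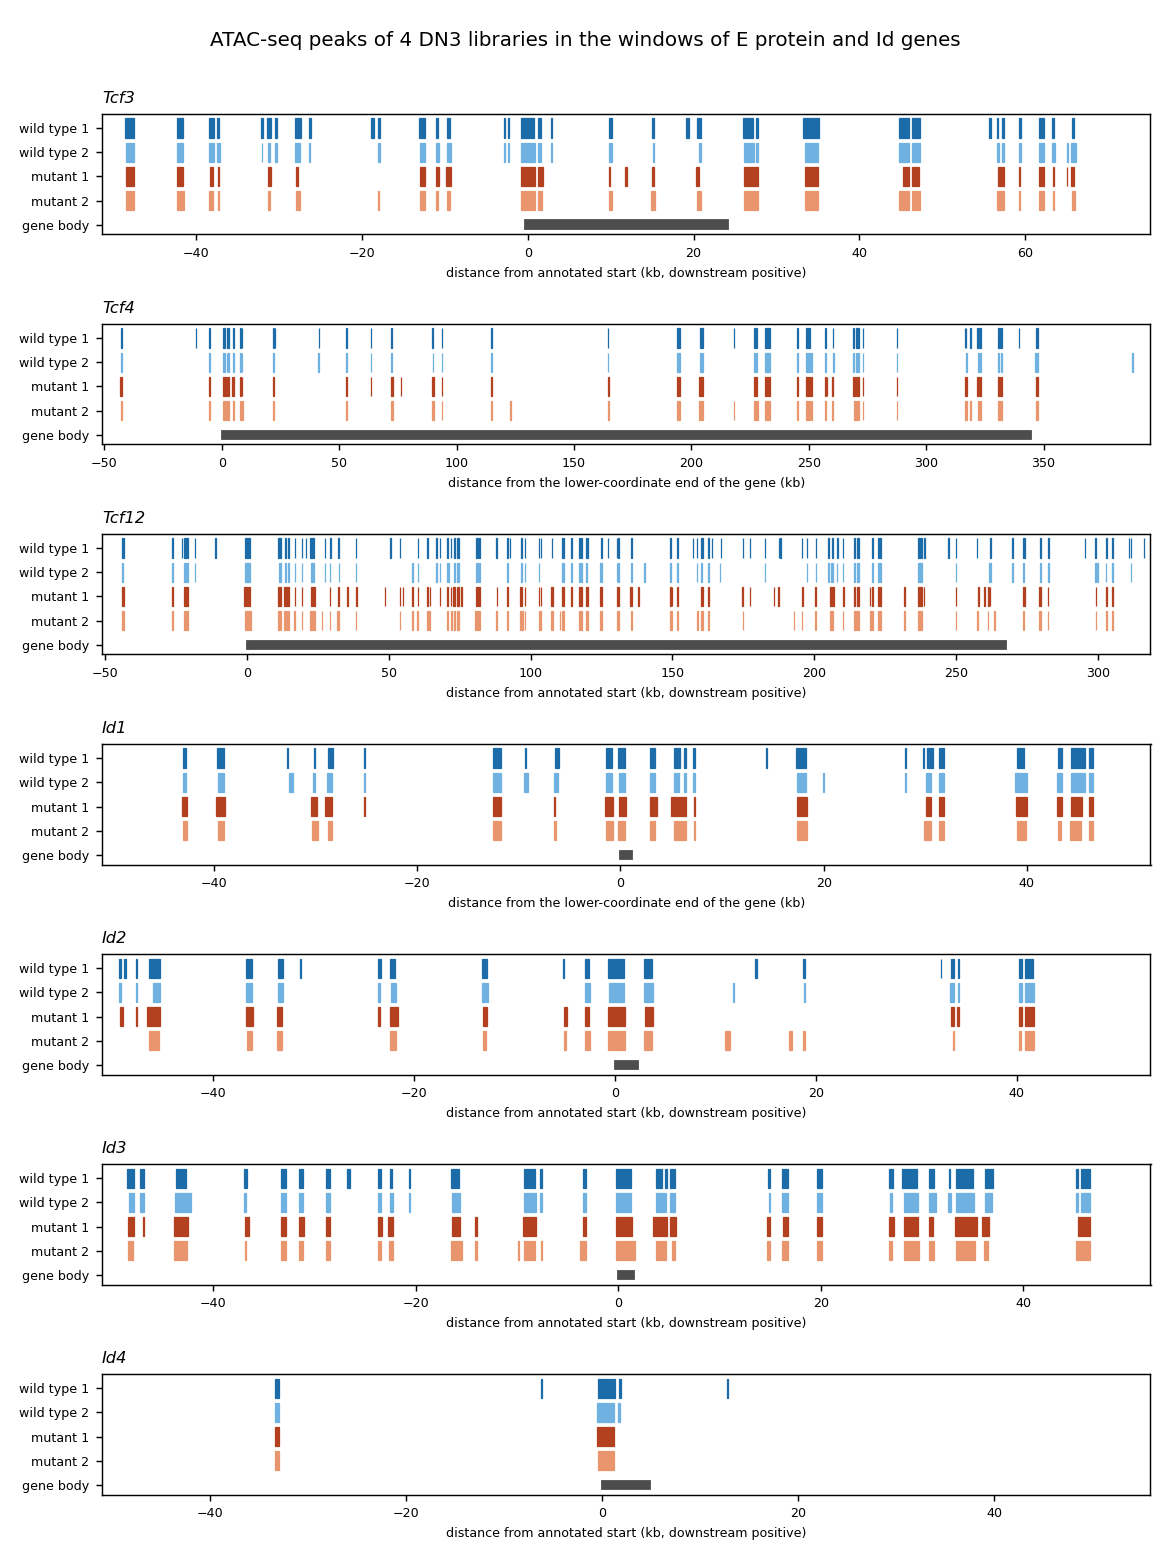
Peaks of the 4 libraries (rows) in the window of each gene, by distance in kb from the annotated start or, for Tcf4 and Id1, from the lower-coordinate end of the gene; the grey bar is the gene body. Tcf12 holds 103 regions and Id4 holds 5, and the region at each start is present in all 4 rows.

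The windows differed widely in how many regions they held. The median window of a protein-coding gene had 17 regions, or 12.9 per 100 kb. Tcf12 had 103 regions, more than 99.9% of genes. Its body alone is 268 kb long, and its density of 28.0 per 100 kb was above that of 96.4% of genes. Tcf3 reached a like density, 28.1 per 100 kb from 35 regions. Tcf4, whose body of 345 kb is the longest of the 7, had 44 regions at 9.90 per 100 kb, above 40.3% of genes. Among the inhibitors, Id3 was the densest with 30 regions and 29.5 per 100 kb, above 98.0% of genes. Id1 had 25 regions (24.7 per 100 kb) and Id2 had 24 (23.5 per 100 kb). Id4 had 5 regions (4.77 per 100 kb), above 25.0% of genes.

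The regions also lay differently with respect to the genes. Of the Tcf4 regions 39 of 44 overlapped the gene itself, and of the Tcf12 regions 85 of 103. At Tcf3 only 8 of 35 did, with 24 outside genes and 3 in its neighbours Mbd3, Mex3d and Uqcr11. The Id genes are short and each of Id1, Id2 and Id3 had 1 region on its own body. At Id1, 15 of 25 regions overlapped other genes (Bcl2l1, Cox4i2 and H13), so its window describes a gene-rich neighbourhood. At Id2 4 regions lay in Kidins220 and 19 outside genes, and at Id3 6 lay in E2f2, the gene of a cell-cycle transcription factor, and 23 outside genes. The peak lists do not say which gene a region acts on.

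Of the 266 regions, 155 were called in all 4 libraries, which is 58.3% (95% Clopper-Pearson interval 52.1 to 64.3%) beside 56.7% of all regions. The intervals cover counting error only, and neighbouring regions are not independent. Below, a region counts as called only in 1 genotype when both libraries of that genotype and neither of the other had it; regions in a lone library are counted apart. Both wild-type libraries had 190 of the regions, and no mutant library had 21 of these. This is 11.1% (6.97 to 16.4%) beside 15% of all such regions. Of the 169 called in both mutant libraries, 4 were called in no wild-type library, 2.37% (0.649 to 5.95%) beside 1.75%. Each of these intervals contains the share over all regions in the deposited lists. It did not in 3 of 11 alternatives for the wild-type-only share and 4 of 11 for the mutant-only share. The wild-type-only share was then lower, narrowly so with windows of 100 kb, at 10.7% (7.35 to 14.94%) beside 14.96%. It was 14% beside 21.03% without the first wild-type library and 13.1% beside 19.3% without the second mutant library. The mutant-only share was then higher. It was 11.9% beside 6.99% when the same number of peaks was taken from every list, and 13.5% beside 7.46% with 50% cover. It was 7.10% beside 3.66% without the first wild-type library and 9.09% beside 4.11% without the second mutant library. Other shares moved while their intervals still contained the share over all regions. The wild-type-only share was 2.13% beside 4.92% with equal numbers of peaks and 21.9% beside 25.4% without the second wild-type library. The mutant-only share was 6.49% beside 3.83% without the first mutant library.

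Strong regions were shared. All 83 regions with a fold of 4 or more in at least 1 library were called in all 4, which compares with 65816 of 68746 such regions over the genome (95.7%). Of the 62 member regions under 200 bp wide, 1 was called in all 4 libraries, and of all such regions 11.1% were. The median width was 632 bp for the shared regions and 192 bp for those called only in wild type. The regions called only in wild type had folds between 1.37 and 3.36 and widths between 102 and 462 bp. At 5 of these 21 a wild-type peak was shorter than 87 bp, the shortest peak of the second mutant list. None of the 21 had a mutant peak within 348 bp.

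**Figure D2:**
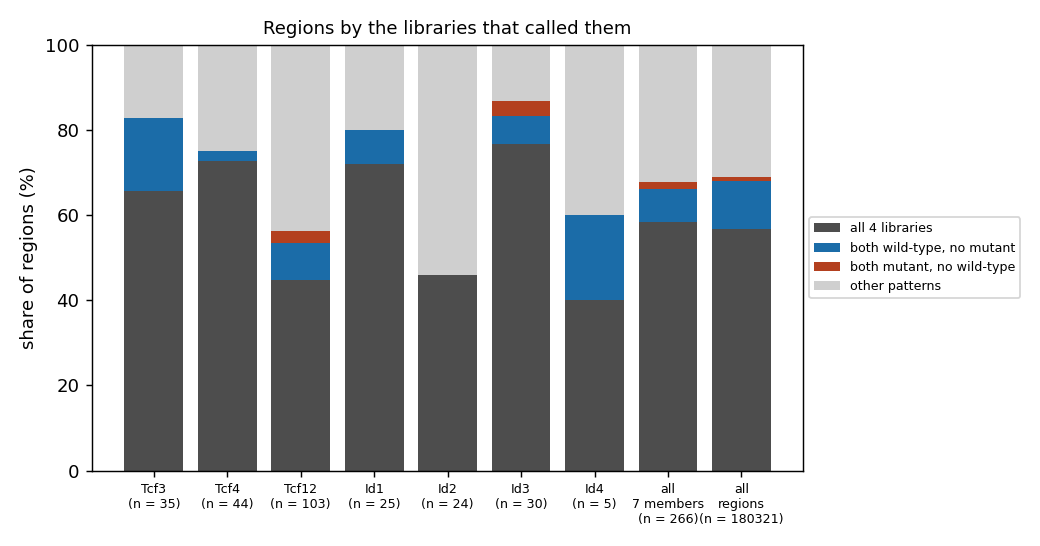
Share of regions (%, vertical axis) by the libraries that called them, for each gene, all 7 genes and all 180321 regions. Regions called only in wild type (blue) make up 6 of 35 at Tcf3 and 0 of 24 at Id2, and regions called only in mutant (red) appear at Tcf12 (3) and Id3 (1).

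At Tcf3, which encodes the E protein of that name and is known for its part in early B-cell and T-cell development, 23 of 35 regions were called in all 4 libraries. The region at the start, chr10:80432806-80434457, was 1652 bp wide. Its fold was 4.14 and 4.14 in the wild-type libraries and 4.39 and 4.55 in the mutant libraries. Its rank was higher in both mutant libraries. The region with the highest lowest fold lay 12.7 kb upstream, at chr10:80445996-80446697, outside genes. It had folds of 6.49 and 7.06 in wild type and 5.87 and 6.73 in mutant, so the genotypes overlapped. A pair of regions tied as the widest at 1869 bp. The first covered an end of Mbd3, the gene of a subunit of a chromatin-remodelling complex. It had folds of 6.15 and 5.87 in wild type and 5.003 and 5.48 in mutant. By rank it was higher in both mutant libraries, at percentile 75.3 and 79.0, against 72.0 and 74.9 in wild type. The other, in Uqcr11, had folds of 4.55 and 4.53 in wild type and 4.29 and 3.98 in mutant, and its ranks overlapped. It was 2 peaks in each wild-type library, of which the higher fold is given, and 1 in each mutant library.

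Of the 30 Tcf3 regions in both wild-type libraries, 6 were called in no mutant library, 20% (7.71 to 38.6%) beside 15% of all regions. They lay 2.88 kb downstream of the start, inside the gene, and 2.297, 2.84, 26.3, 30.4 and 32.0 kb upstream of it. Their folds were between 1.58 and 3.36 and their widths between 124 and 235 bp. The strongest, chr10:80459820-80460011, had a fold of 3.36 in the first wild-type library and 2.14 in the second. The nearest mutant peaks were between 0.457 and 1.96 kb away. No Tcf3 region was called in both mutant libraries and no wild-type library.

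At Tcf4, an E protein gene best known for plasmacytoid dendritic cells and B cells, 32 of 44 regions were called in all 4 libraries. This was 72.7% (57.2 to 85.0%) beside 56.7% of all regions, which lies just below this interval. The region near the lower-coordinate end of the gene was 1431 bp wide. Its fold was 7.62 and 8.70 in wild type and 3.87 and 4.52 in mutant, so both wild-type values were above both mutant values. Ranked by fold among the 102231 shared regions of each library, it stood at percentile 85.1 and 94.0 in wild type and 56.7 and 65.8 in mutant. That mean difference of 28.3 percentile points exceeded the difference at 97.8% of shared regions. The peaks there were 909 and 610 bp wide in wild type and 1431 and 1223 bp in mutant, so the fold was averaged over a longer stretch in mutant; the part of this in the difference was not tested. The region with the highest lowest fold lay 53.1 kb into the gene. Its folds were 7.63 and 5.86 in wild type and 5.93 and 6.29 in mutant. By rank it was higher in both mutant libraries, at percentile 85.3 and 86.6, against 85.2 and 74.9 in wild type. The widest region, 2055 bp, lay 233 kb into the gene. It had folds of 4.55 and 4.91 in wild type and 3.92 and 3.20 in mutant, and its ranks overlapped. It was 1 peak in the second mutant library and 2 in each of the others, where the higher fold is given. The weaker peaks had folds of 2.53 and 2.39 in wild type and 2.82 in the first mutant library. A lone Tcf4 region was called only in wild type, 41.2 kb into the gene with folds of 2.37 and 3.24, and the mirror pattern had none. It was 1 of 34 in both wild-type libraries, 2.94% (0.0744 to 15.3%) beside 15% of all regions. A further 7 Tcf4 regions were called in 1 library, 15.9% beside 20.1% of all regions.

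At Tcf12, the E protein gene whose product is known as a partner of the Tcf3 product in thymocytes, 46 of 103 regions were called in all 4 libraries. This was 44.7% (34.9 to 54.8%) beside 56.7% of all regions, which lies above this interval. The region at the outer starts, chr9:72110344-72112668, was the widest of the window at 2325 bp. Its fold was 5.77 and 5.98 in wild type and 5.13 and 5.70 in mutant. A region of 790 bp at the internal start, chr9:71895894-71896683, which lies 216 kb into the gene, had folds of 4.90 and 4.77 in wild type and 4.74 and 4.62 in mutant. The outer and internal starts thus had a peak in every library. At both, the wild-type folds were above the mutant folds, while the rank within the library was higher in both mutant libraries. The region with the highest lowest fold lay 21.4 kb upstream at chr9:72132504-72134012, outside genes. It had folds of 7.51 and 7.26 in wild type and 6.16 and 6.69 in mutant. The rank ran the other way, at percentile 84.3 and 87.0 in wild type and 87.3 and 89.6 in mutant.

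Of the 59 Tcf12 regions in both wild-type libraries, 9 were called in no mutant library, 15.3% (7.22 to 27.0%) beside 15% of all regions, with folds between 1.88 and 2.89. Of them 6 lay inside the gene, 1 in Cgnl1 and 2 outside genes. Of the 57 regions in both mutant libraries, 3 were called in no wild-type library, 5.26% (1.10 to 14.6%) beside 1.75% of all regions, which lies inside this interval. All 3 lay in the downstream part of the gene, between 220 and 261 kb from the outermost end. At chr9:71879917-71880249 the mutant folds were 2.51 and 2.97, at chr9:71850361-71850577 they were 2.08 and 2.42, and at chr9:71891946-71892043 they were 1.42 and 1.69. Tcf12 also had many regions with other patterns. Of its 103 regions 29 were called in 1 library, 28.2% beside 20.1% of all regions, and 7 (6.80%) were missing from the second wild-type library alone, a pattern shown by 1.13% of all regions. The wild-type libraries called 89 and 67 peaks there and the mutant libraries 74 and 64, so the spread within wild type was larger than the difference between the genotype means.

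At Id1, 18 of 25 regions were called in all 4 libraries. The region on the gene, chr2:152736065-152736804, had folds of 4.28 and 4.15 in wild type and 3.28 and 3.49 in mutant. A second region 1.08 kb below the lower-coordinate end of the gene, chr2:152734786-152735548, had folds of 4.995 and 5.26 in wild type and 4.16 and 4.40 in mutant. In both regions the wild-type folds were above the mutant folds, but the ranks within the libraries overlapped. The region with the highest lowest fold, chr2:152723704-152724530, lay 12.1 kb below that end. It had folds of 6.76 and 6.55 in wild type and 6.87 and 6.95 in mutant. The ranks were percentile 78.3 and 81.7 in wild type and 92.0 and 91.2 in mutant. A pair of regions tied as the widest at 1459 bp. The first, 5.75 kb above the same end, was called as 2 peaks in each wild-type library and 1 in each mutant library. Its folds were 3.80 and 3.98 in wild type, from the stronger peak, and 2.71 and 2.42 in mutant. The weaker wild-type peaks had folds of 2.36 and 2.48. The other, 45.0 kb above it in Bcl2l1, was 1 peak in every library. It had folds of 2.58 and 2.49 in wild type and 2.44 and 2.89 in mutant. By rank it was higher in both mutant libraries, at percentile 19.8 and 28.6, against 10.4 and 10.1 in wild type. The 2 regions called only in wild type, of 21 in both wild-type libraries (9.52%, beside 15% of all regions), had folds between 1.75 and 2.14.

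At Id2, an inhibitor known for innate lymphoid and natural killer cells, 11 of 24 regions were called in all 4 libraries. None of the 16 in both wild-type libraries was called only in wild type, beside 15% of all regions. None of the 12 in both mutant libraries was called only in mutant, beside 1.75%. The remaining 13 regions were called in 1 library (7, or 29.2%, beside 20.1% of all regions) or in 3 (6 of 24, beside 15433 of 180321). The start region, chr12:25095055-25096732, was 1678 bp wide and the widest of the window. Its fold was 4.46 and 3.78 in wild type and 3.01 and 3.29 in mutant, and its rank was percentile 47.7 and 40.9 in wild type and 36.3 and 39.9 in mutant. Both wild-type ranks were higher, the second by about 1 percentile point. The region with the highest lowest fold lay in Kidins220, 41.3 kb downstream, at chr12:25054376-25055307. Its fold was 7.70 and 6.64 in wild type and 7.04 and 6.48 in mutant, so the folds overlapped. The ranks did not, at percentile 85.6 and 82.5 in wild type and 92.9 and 88.0 in mutant.

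At Id3, the inhibitor known for its induction by pre-T-cell receptor signals, 23 of 30 regions were called in all 4 libraries. This was 76.7% (57.7 to 90.1%) beside 56.7% of all regions, which lies just below this interval. The intervals at Tcf4 and Tcf12 also missed that share, on opposite sides, and those at Tcf3, Id1, Id2 and Id4 contained it. The start region, chr4:136143574-136145434, was 1861 bp wide once merged and then covered the whole gene, which ends 1.57 kb from its start. The peaks themselves ended at 1.24 kb in both wild-type libraries, 1.34 kb in the first mutant and 1.61 kb in the second mutant library. The fold of the region was 3.73 and 3.46 in wild type and 3.08 and 3.22 in mutant. Its rank ran the other way, at percentile 33.9 and 33.7 in wild type and 38.3 and 38.1 in mutant. The region with the highest lowest fold lay 19.9 kb downstream at chr4:136163475-136163945, between Id3 and E2f2. It had folds of 8.02 and 7.37 in wild type and 5.96 and 6.22 in mutant, and percentiles of 87.7 and 87.8 against 85.6 and 86.0. The folds were thus apart while the ranks were nearly level. The widest region of the window, 2202 bp, lay in E2f2 with folds between 2.34 and 2.61. Of the 27 Id3 regions in both wild-type libraries, 2 were called in no mutant library, 7.41% (0.910 to 24.3%) beside 15% of all regions. Their folds were between 1.37 and 2.06. The only region called only in mutant at an Id gene was chr4:136129688-136129839, 14.1 kb upstream of Id3, with folds of 2.22 and 2.60. It was 1 of 24 Id3 regions in both mutant libraries, 4.17% (0.105 to 21.1%) beside 1.75% of all regions.

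At Id4 the window was sparse, with 5 regions. Of these, 2 were called in all 4 libraries and 1 only in wild type. The other 2 were called in the first wild-type library alone, a pattern of 40% there beside 11.2% of all regions. The start region, chr13:48260617-48262400, had folds of 4.38 and 4.34 in wild type and 3.02 and 3.73 in mutant, and its ranks overlapped. The other shared region, chr13:48227754-48228197, lay 33.1 kb upstream outside genes. Its fold was 10.5 and 8.70 in wild type and 4.69 and 5.16 in mutant. Its rank was percentile 96.7 and 94.0 in wild type and 71.0 and 75.2 in mutant, and both wild-type values stood above both mutant values. Peak widths there were 434 and 437 bp in wild type and no less than 358 bp in mutant; how fold depends on width was not tested. The mean difference of 22.3 percentile points exceeded that of 95.4% of shared regions and of 97.6% of the 52792 shared regions whose peak widths stayed within 1.5-fold of each other. This region was named by the rule for the highest lowest fold, and no test across the 155 shared regions was made. The region called only in wild type, chr13:48262710-48262993, lay inside the gene with folds of 2.20 and 2.43. It was 1 of 3 in both wild-type libraries (33.3%, beside 15% of all regions).

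**Figure D3:**
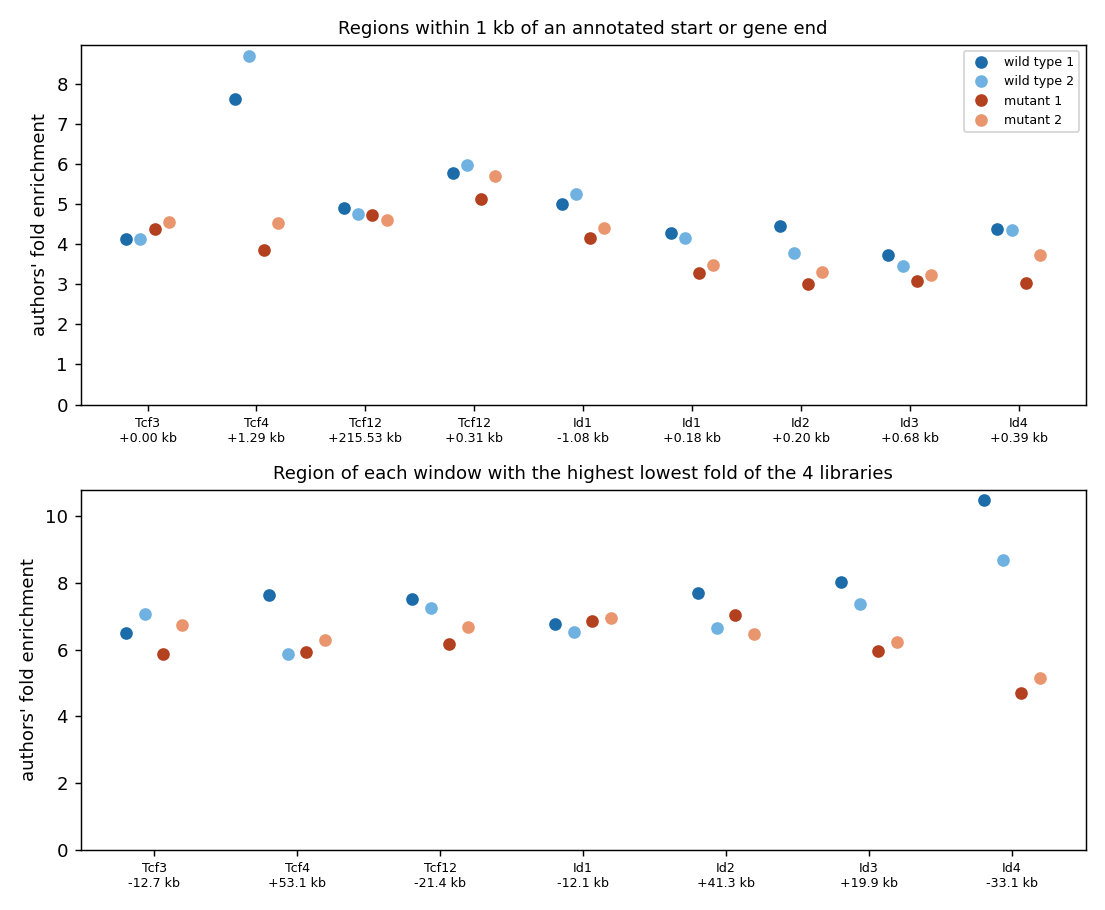
The authors' fold enrichment (vertical axis) in each library for the regions at the starts (top) and for the region with the highest lowest fold in each window (bottom); the horizontal axis gives the gene and the distance in kb, and each point is 1 library. The wild-type points stand clear of the mutant points at the Tcf4 end (7.62 and 8.70 against 3.87 and 4.52) and 33.1 kb upstream of Id4 (10.5 and 8.70 against 4.69 and 5.16).

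Ranking the shared regions within each library removes differences in the overall scale of fold. Of the 155 shared regions, 44 ranked higher in both wild-type libraries than in both mutant libraries, 28.4% beside 27.7% of all shared regions. The reverse held for 61, 39.4% beside 32.4%, and 50 overlapped. The E protein genes had 29 and 41 of 101, and the Id genes 15 and 20 of 54. Restricted to regions with matched peak widths, 18 of 68 ranked higher in wild type and 30 in mutant, beside 21% and 41.9% of all such regions. At Id3 12 of 23 ranked higher in mutant and 5 in wild type. At Id2 the counts were 1 and 5 of 11, at Tcf3 10 and 5 of 23, at Tcf4 13 and 8 of 32, at Tcf12 18 and 16 of 46, and at Id1 7 and 4 of 18. The mean difference in rank, wild type minus mutant, ran from -39.8 to 33.3 percentile points. Both extremes, chosen after their values were seen, lay inside E protein genes, which hold 101 of the 155 shared regions. The lowest was 89.9 kb into Tcf4, with folds of 3.18 and 2.99 in wild type and 4.32 and 4.15 in mutant. The peaks there ran from 89.653 to 90.115 and 89.793 to 90.11 kb in wild type. In mutant they ran from 89.657 to 90.235 and 89.639 to 90.223 kb. The highest difference was 73.1 kb into Tcf12, with folds of 6.38 and 5.44 in wild type and 3.02 and 3.34 in mutant. At this Tcf12 region the peaks covered 253 and 183 bp in wild type and 715 and 606 bp in mutant.

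**Figure D4:**
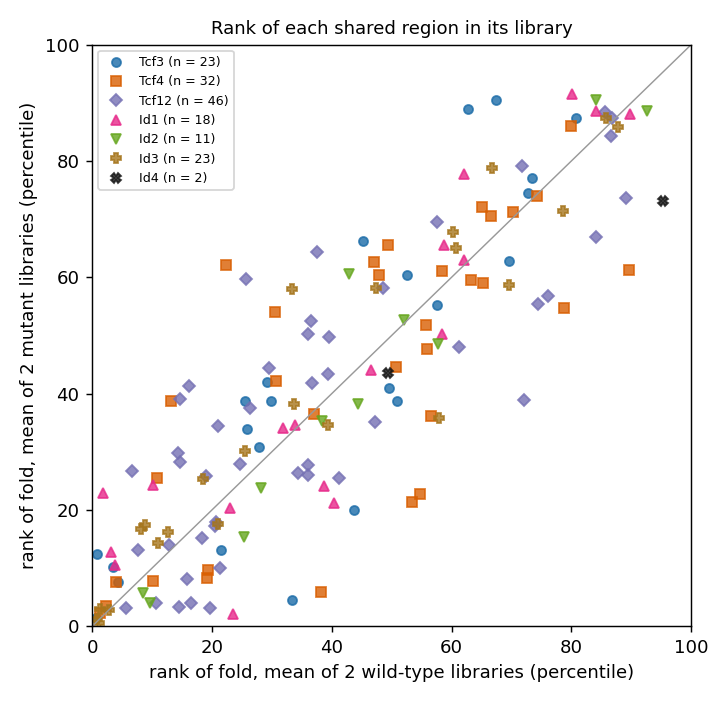
Rank of fold of each of the 155 shared regions within its library (percentile among 102231 shared regions), as the mean of the wild-type libraries (horizontal axis) and of the mutant libraries (vertical axis); symbols mark the gene and the line marks equal rank. The Id4 region at 33.1 kb upstream lies far to the right of the line (percentiles 96.7 and 94.0 against 71.0 and 75.2).

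The length under peaks separated the long E protein genes from the rest. At Tcf4 the peaks covered 18.03 and 17.3 kb in wild type and 23.3 and 21.2 kb in mutant, with means of 17.7 ± 0.520 and 22.3 ± 1.47 kb (SD, n = 2 each). At Tcf12 they covered 28.9 and 24.7 kb in wild type and 33.8 and 33.2 kb in mutant, with means of 26.8 ± 2.95 and 33.5 ± 0.416 kb. Both mutant libraries were above both wild-type libraries at each gene, a separation seen at 26.9% of 18954 protein-coding windows. The mutant means were 1.26 and 1.25 times the wild-type means, ratios above those of 95.1% and 94.6% of windows. Among the 908 genes of 200 kb or longer, where 27.2% showed the same separation, the ratios were above those of 92.1% and 91.3%. The exact permutation test gave p = 0.333 at each gene, the smallest that 2 against 2 libraries allow. The difference was not lost when all lists were joined over the same gap and held to the same minimum length, with ratios of 1.21 and 1.24; the same separation was then found in 23.5% of all windows and 26% of the windows of long genes. The opposite separation was shown by 39.8% of the windows of long genes in the deposited lists and 40.5% in the joined lists.

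The longer coverage came from regions shared by all libraries. At Tcf4 the 32 shared regions covered on average 16.99 kb in wild type and 21.6 kb in mutant, while the remaining regions covered 0.662 and 0.630 kb. At Tcf12 the 46 shared regions covered 22.2 and 28.5 kb and the remaining ones 4.57 and 4.97 kb. Of the shared regions, 22 of 32 at Tcf4 (68.8%) and 29 of 46 at Tcf12 (63.0%) had more bases under peaks in both mutant libraries than in both wild-type libraries, beside 38.8% of all shared regions. The reverse held for 2 and 5 of them, beside 19.8%. The peaks at Tcf3 did not show this, with 6 of 23 longer in mutant and 7 in wild type.

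At the other genes the covered length differed less or in the other direction. Tcf3 had 17.5 and 16.0 kb in wild type and 14.7 and 15.5 kb in mutant, and Id4 had 2.66 and 2.36 kb in wild type and 2.097 and 1.97 kb in mutant. At both genes the wild-type libraries were above the mutant ones, as at 35% of windows (38% in the joined lists). The ratios of mutant to wild type were 0.902 and 0.811, with p = 0.333 by the exact permutation test. The Tcf3 groups overlapped with windows of 10 kb, at a difference of 0.006 kb. They also overlapped with equal numbers of peaks, at 0.078 kb. Id1 (11.1 and 11.7 against 12.2 and 11.03 kb), Id2 (8.93 and 7.92 against 8.81 and 8.11 kb) and Id3 (16.97 and 17.5 against 18.3 and 17.3 kb) overlapped between genotypes, with ratios of 1.02, 1.00 and 1.03. Over all 7 windows the number of peaks was 229 ± 25.5 in wild type and 192 ± 9.19 in mutant (mean ± SD, n = 2), a ratio of 1.20 where the whole lists had 1.36 (exact permutation test, p = 0.333). When an equal number of peaks was taken from every list, the direction turned, with 24.0 fewer peaks in wild type.

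**Figure D5:**
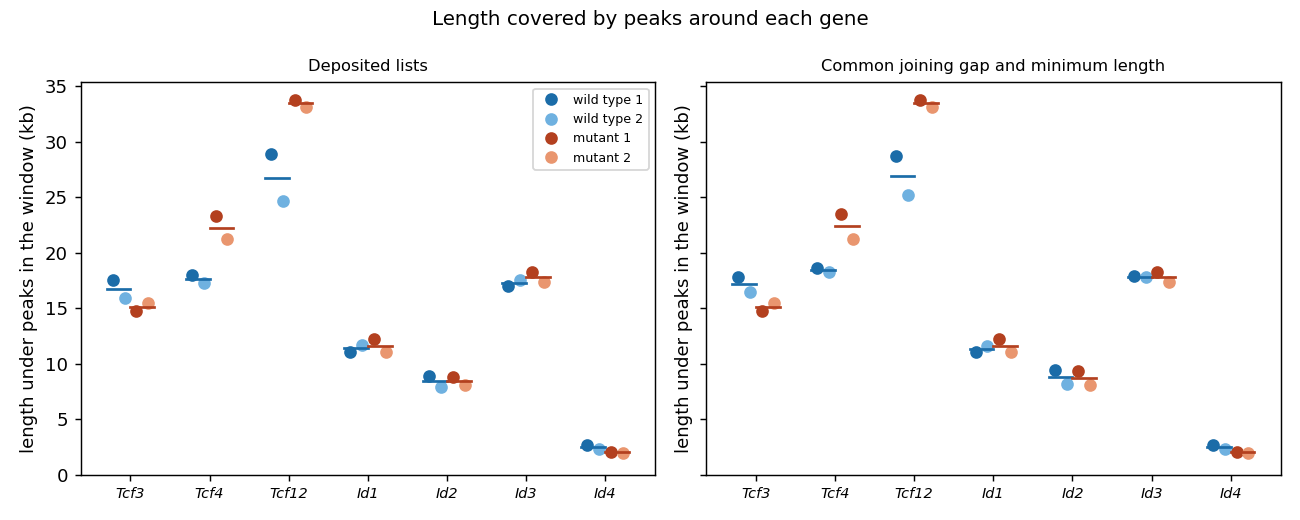
Length under peaks (kb, vertical axis) in the window of each gene; points are libraries and bars the mean of each genotype, for the deposited lists (left) and after joining all lists over a common gap with a common minimum length (right). At Tcf4 and Tcf12 both mutant points lie above both wild-type points in both panels, and at Id1, Id2 and Id3 the genotypes overlap.

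The genes that E proteins work with, regulate or answer to also had peaks at their starts in all libraries. This held for all 25 genes of a pathway list, taken to within 1 kb of a start or gene end, beside 66.8% of protein-coding genes. Their windows held 575 regions, 387 in all 4 libraries (67.3%, beside 56.7% of all regions), and 64 of the 487 present in both wild-type lists (13.1%, beside 15%) were absent from both mutant lists. The mirror case had 3 regions (0.759%, beside 1.75%). The 9 partners of E proteins, among them the helix-loop-helix genes Tal1 and Lyl1 and the cofactor genes Lmo2 and Ldb1, had 24 of 141 regions only in wild type (17.02%, beside the same 15%). Tal1 had 3 of 15, Lyl1 4 of 22, Lmo2 3 of 18 and Ldb1 2 of 17. The 16 targets and genes upstream of Id3, among them Ptcra, the gene of the pre-T-cell receptor alpha chain, the recombinase gene Rag1, Socs3 and Cxcr5, had 40 of 346 (11.6%, beside 15%). Ptcra had 2 of 21, Rag1 3 of 27, Socs3 1 of 27 and Cxcr5 6 of 33. Of the shared regions of the pathway list 26.6% ranked higher in wild type and 40.1% in mutant, beside 27.7% and 32.4% of all shared regions. The 7 genes had 28.4% and 39.4%. With matched peak widths 33 of 204 pathway regions ranked higher in wild type and 112 in mutant, beside 21% and 41.9% of all such regions. The 7 genes then had 18 and 30 of 68.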

How the data were processed

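Peaks had been called per library by the authors and deposited as 4 lists for DN3 cells, 2 per genotype. The submitters' processing notes name MACS2 2.1.1, SAMtools 1.7, Bowtie2 2.3.3.1 and cutadapt 1.16, with mm10 (GRCm38) as build. How they were set, and whether reads were shifted for the transposase, is not given in the sources used here. Fold enrichment, as deposited, is the ratio of a peak's pileup to local background. The deposited score was not used, and the deposited −log10 p and −log10 q served only to filter or order peaks within a list.

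Only chromosomes 1 to 19, X and Y entered, leaving out 0.112% to 0.131% of each list. Regions are the merged union of the lists, and a library had a region if a peak of it overlapped by 1 bp. Gene positions and upstream sequences came from RefSeq tables of GRCm38.p6. Shared regions were ranked within each library by the highest fold of their peaks. Libraries were compared by an exact two-sided permutation test. Python 3.11.15, numpy 2.4.6, pandas 2.3.3, scipy 1.17.1 and matplotlib 3.10.9 were used. On simulated lists of 60000 regions, 200 of 200 and 150 of 150 removed regions were recovered. The lists were copies of the first wild-type list with slightly moved ends, without its narrow or closely spaced peaks. Full recovery was thus set by the design and checks the code only. Depth, joining, narrow or close peaks and loss between replicates were not tested.

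The genes, the pathway and marker lists, the tests and the alternatives were chosen with earlier results of these data known. Named regions were those within 1 kb of a start or end, the highest lowest fold among shared regions, the widest, and every region called in 1 genotype only. A marker of the lists is not reported here.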

Additional observations from a re-analysis of the deposited data

How the results depend on the processing

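Alternatives were windows of 10 and 100 kb, a −log10 q of 5 or a fold of 3, equal numbers of peaks, common joining, 50% cover and leaving out each library. The share over all regions moved with these settings too. The wild-type-only share was 2.13% with equal numbers (beside 4.92% of all regions) and 13.1 to 21.9% with a library left out (beside 19.3 to 25.4%). The mutant-only share was 0% at a fold of 3 (0 of 79, beside 1.27% of all regions) and 11.9% with equal numbers (beside 6.99%). It was 13.5% with 50% cover (beside 7.46%) and 3.55 to 9.09% with a library left out (beside 2.56 to 4.11%). The all-4 share was 67.5% at a −log10 q of 5 (beside 64.9%) and 40.2% with 50% cover (beside 43.1%). It was 62.3 to 66.2% with a library left out (beside 60.7 to 64.2%). The difference in peaks, wild type minus mutant, was 37.5, turned to -24.0 with equal numbers and to -0.0191 percentage points as a share of the whole list (0.140% against 0.160%), a scale chosen after seeing the data, and was 19.5 to 55.5 with a library left out. The difference in covered length was -10.0 kb and -13.3 to -6.73 kb with a library left out. The cause of these shifts was not tested.

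Single genes with overlapping groups changed sign, wild type minus mutant in kb: Id1 to 0.480 at a fold of 3, 0.0870 without the first wild-type and 0.359 without the first mutant library (range over the 4 left-out libraries -0.841 to 0.359); Id2 to 0.136 with 100 kb, 0.841 at a fold of 3, 0.0845 with common joining, 0.477 without the second wild-type and 0.323 without the first mutant library (range -0.535 to 0.477); Id3 to 0.0400 with common joining. Tcf3, Tcf4, Tcf12 and Id4 kept their direction of covered length in the 10 alternatives run, and all 7 genes kept a start peak in every library. At Tcf3, however, the difference shrank to 0.006 kb with windows of 10 kb and to 0.078 kb with equal numbers of peaks. Its groups overlapped in both, and also at a −log10 q of 5 and at a fold of 3.

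With the replicate block the differences were 37.5 peaks and -10.0 kb, each with p = 0.5 by an exact sign-flip test. This is the smallest p that 2 pairs allow. The pairs agreed in sign, at 49 and 26 peaks and at -9.18 and -10.8 kb. The labels do not say that numbers pair the libraries, and the deviations of same-numbered libraries correlated at -0.0675 over 102231 shared regions. With no counts, depth could not be assessed, and 2 libraries per genotype cannot give p below 0.333.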
